A study of Mus musculus with 12 samples.

Results

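The comparison described here asked what deletion of Mcl1 in hepatocytes did to the liver transcriptome when every liver compared was labelled as lacking Sting1. It used 6 of the 12 libraries of the series: 3 livers labelled Mcl1 Sting1 DKO (below, DKO) and 3 livers labelled Sting1 KO, and all 15070 genes with enough counts were tested. Per the labels and the study's methods, all 6 livers came from mice with a constitutive Sting1 deletion (Sting1-/-), and Sting1-null below means this label. The DKO mice came from crossing this line with mice in which Alb-Cre, a recombinase driven by the albumin promoter, removes floxed Mcl1 from hepatocytes, so that Kupffer cells, endothelium and other liver cells kept Mcl1. The other 6 libraries, 3 WT and 3 Mcl1 KO with intact Sting1, shared the estimate of the spread and served as the intact background. The study's methods gave ages of 2 and 12 months for its WT, Mcl1 KO and DKO mice and named animals of both sexes, and it placed its transcriptome comparison of WT and Mcl1 KO livers at 2 months. For the sequenced DKO and Sting1 KO livers, no age was found in the sources used here. The labels did not say which animal each library came from, so p-values measured the spread between these samples.

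MCL1 is a prosurvival protein of the BCL2 family that holds the effectors BAX and BAK in check at the mitochondrial membrane. Hepatocytes without it die more often, and the loss is followed by compensatory division of hepatocytes and chronic liver injury. STING1 sits downstream of the cytosolic DNA sensor cGAS and drives interferon and chemokine genes, mostly in the nonparenchymal cells of the liver.

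The libraries held 28826367 to 42121919 counts on genes, and the chi-square over its degrees of freedom ran from 41.5 to 145 for replicate pairs, well above sampling noise, so none was a repeat of another. Expression is given below as CPM, counts scaled to library size with edgeR's TMM factors, and differences between genotypes are log2 fold changes. Alb, Ttr and the other hepatocyte markers were abundant in all 6 livers, as the tissue label requires, and skeletal muscle and exocrine pancreas markers were at or near 0. One liver stood apart. DKO 1 had 147 CPM on 4 Y-linked genes, whereas DKO 2, DKO 3 and the 3 Sting1 KO livers had 0.0497 CPM or less. The male-biased gene Cyp2d9 was at 781 CPM in DKO 1 and at 44.6 and 46.0 CPM in DKO 2 and DKO 3, and the female-biased gene Cyp2b9 was at 0.535, 384 and 337 CPM in DKO 1, 2 and 3. Counts of called genes are therefore also given with Y-linked expression as a covariate or without DKO 1.

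Mcl1 itself (ENSMUSG00000038612, GRCm39 chromosome 3, 95566026 to 95570487) was at 18.1, 22.9 and 25.97 CPM in DKO 1, 2 and 3. In Sting1 KO 1, 2 and 3 it was at 78.3, 90.1 and 77.0 CPM. The groups did not overlap, and Mcl1 was 3.66-fold lower in DKO livers (log2 fold change -1.87, SE 0.16, edgeR adjusted p = 0.00145). It was past the threshold under all 20 alternative settings. The reads left on Mcl1 came from whole liver, in which nonparenchymal cells keep the gene, and their cells of origin were not tested. Against WT livers, Sting1 did not check its label. It was at 1.90, 2.53 and 2.33 CPM in DKO 1, 2 and 3 and at 1.16, 1.73 and 2.70 CPM in Sting1 KO 1, 2 and 3. WT livers had 2.53, 2.43 and 2.11 CPM of it, within the same range. Its counts thus did not separate Sting1-null from WT libraries. Mcl1 KO livers had 4.59, 5.997 and 3.67 CPM of Sting1, above every DKO, Sting1 KO and WT liver. DKO and Sting1 KO mean below the libraries so labelled.

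At an edgeR adjusted p under 0.05, 121 of the 15070 genes differed between DKO and Sting1 KO livers (0.803%). Of these, 102 were higher in DKO livers (0.677%) and 19 were lower (0.126%). The largest rises were those of genes of mitosis, of macrophage matrix proteases and lipid handling, and of single genes such as Gldn and Gsta1. Among genes with a mean of at least 1 CPM, the largest falls were those of Mme, Cnmd and Dct. For all 121 genes, the 3 DKO livers did not overlap the 3 Sting1 KO livers, which held for 11.5% of all genes in the higher direction and 10.8% in the lower. An unadjusted p under 0.05 was reached by 1709 genes (11.3%).

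**Figure D1:**
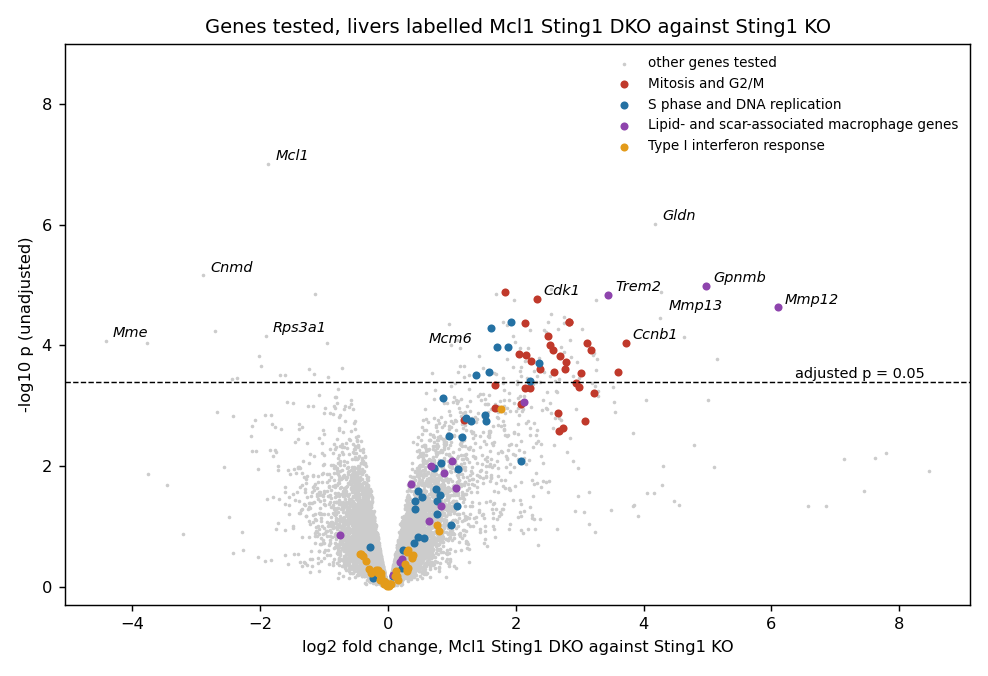
Each point is 1 of the 15070 genes tested; the horizontal axis is the log2 fold change of DKO against Sting1 KO livers and the vertical axis is -log10 of the unadjusted p. The dashed line marks the highest p among the 121 genes with an adjusted p under 0.05, and the mitosis genes lie at a log2 fold change of 1.19 or more, while most interferon response genes lie near 0.

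The number of genes past the threshold depended on single livers. Without DKO 1 or without DKO 2, 2 genes were called, and without Sting1 KO 1, 2 or 3, 3, 1 and 2 genes were called. Without DKO 3, in which 93 of the 102 higher genes were lowest among the DKO livers, 249 genes were called. A covariate for Y-linked expression left 45 called genes. All 121 genes kept their direction under each of the 20 alternatives in which they were tested. None of the 121 overlapped between the genotypes, so leaving out a liver could hardly turn a direction. The kept direction is thus no separate support. DKO 1 had the highest level for 75 of the 102 higher genes, DKO 2 for 22 and DKO 3 for 5. In a principal component analysis of the 6 libraries, the first component held 50.7% of the variance and placed DKO 1 at -72.4, DKO 2 at -20.9 and DKO 3 at 1.39, with the Sting1 KO livers between 28.3 and 32.1.

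Genes of mitosis formed the largest group. Of the 34 tested genes of the mitosis and G2/M list, 21 rose and none fell, against 0.677% of all genes called higher. In 33 of the 34, the 3 DKO livers were above the 3 Sting1 KO livers, against 11.5% of all genes, and all 34 had an unadjusted p under 0.05, against 11.3%. The median log2 fold change of the list was 2.63, where that of all genes tested was -0.0087. The summed level of the list was 551, 279 and 137 CPM in DKO 1, 2 and 3, and 67.2, 49.4 and 44.2 CPM in the Sting1 KO livers. Each DKO liver thus exceeded every Sting1 KO liver, and the DKO livers differed among themselves more than the Sting1 KO livers did.

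Mitotic genes share an element of their promoters, the cell cycle genes homology region (CHR, with the letters TTTGAA), often next to CCAAT boxes, and the DREAM and MMB complexes act through the CHR to hold these genes down outside of division and to switch them on in G2. RefSeq promoter windows, 250 bases before to 50 bases after the transcription start on GRCm38.p6, were given for 29 of the 34 genes. TTTGAA, searched on both strands, stood in 22 of them (75.9%) and in 15.1% of the windows of all tested genes. The letters CCAAT, on either strand, stood in 21 of the 29 (72.4%) and in 42.9% of the windows of all tested genes. The windows of Cdk1, Ube2c and Ndc80 are shown, since these were the 3 genes with the lowest p among those called whose window held the CHR. They are printed 5′ to 3′ along the gene's own strand, with the start site at the beginning of the last 50 bases. Capitals mark TTTGAA and CCAAT or their reverse complements, and in 1 stretch of Ube2c a CCAAT and a reversed one overlap.
Cdk1 (chr10:69352863-69353162, minus strand): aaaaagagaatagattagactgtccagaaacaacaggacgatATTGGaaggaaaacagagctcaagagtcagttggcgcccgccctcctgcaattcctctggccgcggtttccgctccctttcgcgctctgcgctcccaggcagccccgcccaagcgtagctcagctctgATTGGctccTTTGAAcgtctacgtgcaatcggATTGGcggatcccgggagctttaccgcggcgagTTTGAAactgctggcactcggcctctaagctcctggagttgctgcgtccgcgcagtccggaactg
Ube2c (chr2:164769679-164769978, plus strand): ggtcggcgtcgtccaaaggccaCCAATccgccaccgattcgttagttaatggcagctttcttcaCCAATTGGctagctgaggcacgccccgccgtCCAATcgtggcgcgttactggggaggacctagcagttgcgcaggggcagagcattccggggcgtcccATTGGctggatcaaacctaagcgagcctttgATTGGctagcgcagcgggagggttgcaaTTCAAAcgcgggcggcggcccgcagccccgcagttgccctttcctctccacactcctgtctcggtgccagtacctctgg
Ndc80 (chr17:71526808-71527107, minus strand): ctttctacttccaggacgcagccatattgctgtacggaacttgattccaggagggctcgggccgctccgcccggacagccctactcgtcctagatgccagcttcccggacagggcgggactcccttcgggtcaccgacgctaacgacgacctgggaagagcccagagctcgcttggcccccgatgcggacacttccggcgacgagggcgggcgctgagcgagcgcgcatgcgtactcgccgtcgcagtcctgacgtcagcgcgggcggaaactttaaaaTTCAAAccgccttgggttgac
In Cdk1 a CHR began 15 bases before the start site and another 71 bases before it, in Ube2c the CHR began 29 bases before it, and in Ndc80 it began 29 bases after it. A match of letters describes the window and shows no binding.

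Cdk1, the kinase that drives entry into mitosis, was at 16.0, 11.6 and 5.88 CPM in DKO 1, 2 and 3. In Sting1 KO 1, 2 and 3 it was at 2.53, 1.59 and 2.41 CPM. The groups were apart, and Cdk1 rose by a log2 fold change of 2.33 (SE 0.34, edgeR adjusted p = 0.0206). Ccnb1, the cyclin partner of CDK1, was at 19.6, 6.70 and 3.04 CPM in DKO livers and at 0.960, 0.743 and 0.386 CPM in Sting1 KO livers. Its log2 fold change of 3.72 (SE 0.64, edgeR adjusted p = 0.0305) was the largest of the list. Cdc20, which activates the anaphase-promoting complex, was at 51.8, 17.6 and 5.66 CPM against 2.94, 1.94 and 1.16 CPM (log2 fold change 3.61, edgeR adjusted p = 0.0442). Ube2c, the ubiquitin-conjugating enzyme of the same complex, was at 8.45, 4.41 and 2.24 CPM against 0.728, 0.531 and 0.724 CPM (log2 fold change 2.83, edgeR adjusted p = 0.0268). The order was the same in all 4 genes: DKO 1 was highest and DKO 3 lowest of the DKO livers, and DKO 3 was still above every Sting1 KO liver.

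Mad2l1, a checkpoint protein that restrains CDC20, was at 13.2, 10.8 and 7.14 CPM in DKO livers and at 3.43, 2.57 and 2.63 CPM in Sting1 KO livers (log2 fold change 1.83, SE 0.26, edgeR adjusted p = 0.0206). Birc5, the survivin subunit of the chromosomal passenger complex, was at 11.4, 5.41 and 3.37 CPM against 1.28, 0.796 and 0.627 CPM (log2 fold change 2.83, edgeR adjusted p = 0.0268). The largest rises outside the list included Esco2, an acetyltransferase of cohesin, at 15.1, 8.51 and 1.51 CPM against 0.553, 0.265 and 0.338 CPM (log2 fold change 4.26, edgeR adjusted p = 0.0268). DKO 1 was again the highest and DKO 3 the lowest DKO liver for Esco2. Knstrn, a spindle and kinetochore protein, had a log2 fold change of 3.22 (edgeR adjusted p = 0.034), and Cdkn3, a phosphatase of cyclin-dependent kinases, one of 3.27 (edgeR adjusted p = 0.0366). Mki67, the common marker of cycling cells, was at 68.0, 34.0 and 18.9 CPM against 8.15, 6.63 and 4.10 CPM. The groups did not overlap, but at a log2 fold change of 2.67 (SE 0.64) Mki67 missed the threshold (edgeR adjusted p = 0.0853).

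The size of the mitotic change held up better than its calls. The median of the 34 genes was 1.96 without DKO 1, 2.76 without DKO 2 and 3.02 without DKO 3, and 2.28 with Y-linked expression as a covariate. The number of members called was 0 without DKO 1, without DKO 2, without any 1 Sting1 KO liver or in the 6 libraries alone. It was 31 without DKO 3, 6 with the covariate and 34 by DESeq2, which called 474 of the 15070 genes. All 21 called members were highest in DKO 1 and lowest in DKO 3.

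Genes of S phase also rose, less uniformly and in another order of livers. In S phase, the MCM helicase is loaded and activated at origins, and enzymes of nucleotide supply such as ribonucleotide reductase are made under the control of E2F factors. Of 37 tested genes of the S phase and DNA replication list, 8 rose and none fell, against 0.677% of all genes called higher. The median log2 fold change was 0.86, and 26 members had an unadjusted p under 0.05, against 11.3% of all genes. The summed level was 379, 524 and 260 CPM in DKO 1, 2 and 3 and 244, 236 and 230 CPM in Sting1 KO livers. DKO 2 was the highest liver for all 8 called members, whereas DKO 1 was the highest for all 21 called mitosis genes. DKO 3 was the lowest DKO liver for 7 of the 8. With Y-linked expression as a covariate, 3 members were called at a median of 0.91. The number called was 0 without DKO 1, without DKO 2, without any 1 Sting1 KO liver or in the 6 libraries alone, and 15 without DKO 3, and the median was 0.94, 0.62 and 1.09 without DKO 1, 2 and 3.

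Mcm6, a subunit of the replicative helicase, was at 27.7, 55.3 and 19.5 CPM in DKO 1, 2 and 3 and at 10.3, 10.3 and 10.8 CPM in Sting1 KO 1, 2 and 3. The Sting1 KO livers were close together, and every DKO liver lay above them (log2 fold change 1.70, SE 0.30, edgeR adjusted p = 0.0305). Mcm5, another subunit, was at 16.3, 30.6 and 8.95 CPM against 5.30, 4.78 and 5.07 CPM (log2 fold change 1.87, edgeR adjusted p = 0.0305). Gins2, of the GINS complex that joins the helicase at active forks, was at 3.11, 3.90 and 1.67 CPM against 0.757, 0.716 and 0.700 CPM (log2 fold change 1.92, edgeR adjusted p = 0.0268). Rrm2, the regulatory subunit of ribonucleotide reductase, was at 15.8, 18.8 and 13.4 CPM against 6.84, 3.64 and 5.21 CPM (log2 fold change 1.61, edgeR adjusted p = 0.0272). Mcm2 rose by 1.58 (edgeR adjusted p = 0.0442). Pcna, the sliding clamp, had 24.1, 37.1 and 23.4 CPM against 20.9, 20.2 and 21.8 CPM, and its log2 fold change of 0.43 did not pass (edgeR adjusted p = 0.406).

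The promoters of Mcm6 and Mcm5 are printed because these were the called members with the lowest p whose window held 1 of 2 E2F-type motifs searched, TTTCCCGC and TTTGGCGC. Capitals mark TTTGGCGC or its reverse complement.
Mcm6 (chr1:128359656-128359955, GRCm38.p6, minus strand): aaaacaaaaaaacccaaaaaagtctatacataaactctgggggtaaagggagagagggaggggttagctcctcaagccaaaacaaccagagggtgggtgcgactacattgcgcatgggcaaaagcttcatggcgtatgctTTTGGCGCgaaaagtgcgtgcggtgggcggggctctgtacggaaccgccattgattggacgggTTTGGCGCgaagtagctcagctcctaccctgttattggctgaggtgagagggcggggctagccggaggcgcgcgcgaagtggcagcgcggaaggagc
Mcm5 (chr8:75109259-75109558, GRCm38.p6, plus strand): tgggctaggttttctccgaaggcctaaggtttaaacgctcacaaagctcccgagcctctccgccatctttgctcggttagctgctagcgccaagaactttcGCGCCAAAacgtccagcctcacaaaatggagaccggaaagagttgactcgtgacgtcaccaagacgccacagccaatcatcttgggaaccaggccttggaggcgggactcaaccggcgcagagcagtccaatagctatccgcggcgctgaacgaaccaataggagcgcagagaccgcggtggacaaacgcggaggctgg
TTTGGCGC began 110 and 47 bases before the start site of Mcm6 and 149 bases before that of Mcm5. In the windows of the 31 S phase genes that had one, TTTGGCGC stood in 6 (19.4%) and TTTCCCGC in 5 (16.1%), and in the windows of all tested genes the shares were 1.11% and 2.2%. The CHR letters stood in 7 of the 31 (22.6%).

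**Figure D2:**
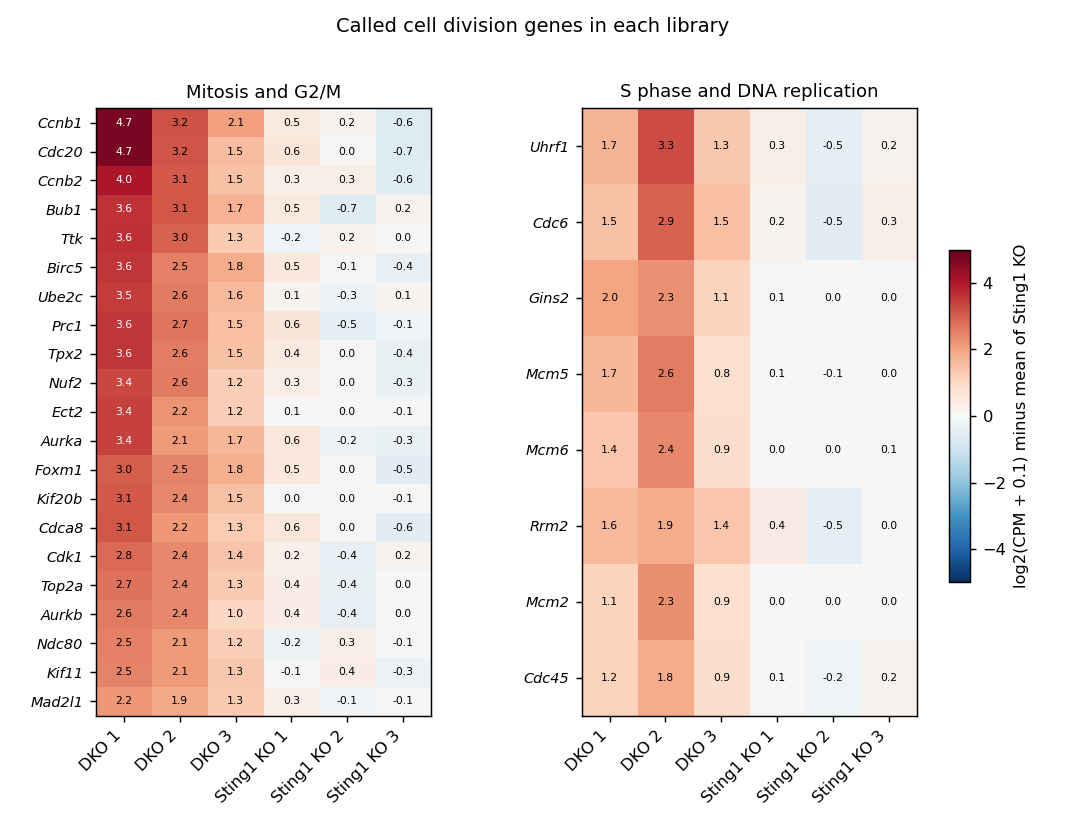
Rows are the 21 called mitosis genes (left) and the 8 called S phase genes (right), columns are the 6 livers, and each cell gives log2(CPM + 0.1) minus the mean of the 3 Sting1 KO livers for that gene. The mitosis genes were highest in DKO 1 and lowest of the DKO livers in DKO 3, and the S phase genes were highest in DKO 2.

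DNA break repair and checkpoint genes, many of which are also made in S and G2, had no called member among 29 by edgeR and 10 by DESeq2. Of all 15070 genes, DESeq2 called 474. The median log2 fold change was 0.76, and 20 members had an unadjusted p under 0.05, against 11.3% of all genes. Chek1, a checkpoint kinase, was at 1.64, 4.70 and 0.903 CPM in DKO livers and at 0.669, 0.478 and 0.410 CPM in Sting1 KO livers (log2 fold change 2.12, edgeR adjusted p = 0.0795). The groups did not overlap, and DKO 2 was highest. The G1 cyclins and CDK inhibitors had no called member among 10. Ccnd1, the G1 cyclin, had 188, 418 and 515 CPM in DKO livers and 285, 176 and 252 CPM in Sting1 KO livers, so the groups overlapped and DKO 1 had the lowest level of the DKO livers.

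Among regulators of apoptosis, Mcl1 was the only 1 of 7 prosurvival BCL2 family genes that passed. Bcl2l1, which encodes BCL-XL, was at 35.5, 26.9 and 38.4 CPM in DKO livers and at 25.6, 28.9 and 25.1 CPM in Sting1 KO livers (log2 fold change 0.34, edgeR adjusted p = 0.534). None of the 3 effectors and none of the 7 BH3-only genes tested passed. Bax was at 11.6, 11.99 and 10.7 CPM against 8.41, 7.40 and 11.8 CPM, and Bak1 at 12.8, 12.5 and 10.7 CPM against 10.4, 12.9 and 9.29 CPM. Both effectors overlapped between the genotypes.

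Of 26 p53 targets, 3 rose and none fell, against 0.677% of all genes called higher, with a list median of 0.31. With Y-linked expression as a covariate 1 member was called, and without DKO 1 or in the 6 libraries alone there were 0. Eda2r, a member of the TNF receptor family, was at 4.98, 5.19 and 3.56 CPM in DKO livers and at 1.05, 1.54 and 1.54 CPM in Sting1 KO livers. The groups were apart (log2 fold change 1.69, SE 0.24, edgeR adjusted p = 0.0206). Phlda3, an inhibitor of AKT, was at 3.54, 4.29 and 1.998 CPM against 1.11, 0.823 and 1.01 CPM (log2 fold change 1.69, edgeR adjusted p = 0.0448). Psrc1, which binds microtubules of the spindle, rose by 2.86 (edgeR adjusted p = 0.0358) from at most 0.204 CPM. Cdkn1a, which encodes the CDK inhibitor p21, was at 5.61, 2.49 and 1.70 CPM against 0.233, 0.584 and 0.772 CPM. Its groups did not overlap, but its log2 fold change of 2.48 (SE 0.58) missed the threshold (edgeR adjusted p = 0.0795). Mdm2, another classical target, differed by 0.21 (edgeR adjusted p = 0.618).

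Macrophages that take up lipid and debris in injured liver express Trem2, Gpnmb and matrix proteases, and 3 of 15 genes of this list rose, against 0.677% of all genes called higher. In bulk liver, more cells of a type and more RNA per cell cannot be told apart. Gpnmb, a transmembrane glycoprotein of these cells, was at 12.9, 7.16 and 3.56 CPM in DKO livers and at 0.175, 0.345 and 0.0724 CPM in Sting1 KO livers (log2 fold change 4.98, SE 0.68, edgeR adjusted p = 0.0206). Trem2, a lipid receptor, was at 5.51, 4.78 and 1.56 CPM against 0.436, 0.292 and 0.217 CPM (log2 fold change 3.45, SE 0.49, edgeR adjusted p = 0.0206). Mmp12, the macrophage elastase, had the largest rise among the genes named by rule, at 22.9, 19.7 and 4.84 CPM against 0.175, 0.133 and 0.217 CPM (log2 fold change 6.10, SE 0.91, edgeR adjusted p = 0.025). For all 3 genes, the Sting1 KO livers were below 0.5 CPM, and DKO 3 was the lowest DKO liver. The list median was 0.83. With Y-linked expression as a covariate, 3 members were called, and there were 0 calls in the list without DKO 1, without DKO 2 or without any 1 Sting1 KO liver.

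The other macrophage lists moved less. Of 16 Kupffer cell genes, none was called and 1 had an unadjusted p under 0.05, against 11.3% of all genes, with a list median of 0.19. Clec4f, a lectin of resident Kupffer cells, was at 163, 200 and 208 CPM in DKO livers and at 152, 166 and 188 CPM in Sting1 KO livers, which overlapped (log2 fold change 0.17, edgeR adjusted p = 0.828). Of 15 genes of recruited monocytes and macrophages, none was called by edgeR and 5 were by DESeq2, which called 474 of the 15070 genes. An unadjusted p under 0.05 was reached by 7, against 11.3% of all genes. The lysosomal marker Cd68 was at 19.3, 19.7 and 18.7 CPM against 9.95, 12.4 and 10.5 CPM, without overlap (log2 fold change 0.81, edgeR adjusted p = 0.134). Ccr2, the receptor for CCL2, was at 4.51, 5.48 and 3.58 CPM against 1.80, 1.91 and 2.15 CPM, also without overlap (log2 fold change 1.19, edgeR adjusted p = 0.191). Lymphocyte, neutrophil and sinusoidal endothelium lists had no called member.

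Matrix genes were higher in most members, with a single call. Of 31 collagens and matrix genes, 24 had all 3 DKO livers above all 3 Sting1 KO livers, against 11.5% of all genes. An unadjusted p under 0.05 was reached by 22, against 11.3% of all genes. Only Mmp13 was called by edgeR, and 9 members were by DESeq2, which called 474 of the 15070 genes. Mmp13, an interstitial collagenase, was at 4.54, 2.88 and 1.18 CPM in DKO livers and at 0.0291, 0.0531 and 0.193 CPM in Sting1 KO livers (log2 fold change 4.28, SE 0.60, edgeR adjusted p = 0.0206). Mmp13 passed with Y-linked expression as a covariate (edgeR adjusted p = 0.0388) but not without DKO 1 (edgeR adjusted p = 0.076). Col1a1, a chain of type I collagen, was at 56.0, 23.7 and 22.8 CPM against 13.5, 11.6 and 7.43 CPM, without overlap (log2 fold change 1.65, SE 0.42, edgeR adjusted p = 0.111). Timp1, an inhibitor of matrix proteases, had a log2 fold change of 1.91 (edgeR adjusted p = 0.339). The list median was 0.78, and it was 0.56 without DKO 1. None of 18 stellate cell and myofibroblast genes was called, but 17 had a log2 fold change above 0, with a median of 0.39. In 7 of them all 3 DKO livers were above all 3 Sting1 KO livers, against 11.5% of all genes. Acta2, the actin of activated stellate cells, overlapped between genotypes at 8.52, 2.63 and 2.98 CPM against 3.96, 2.10 and 4.20 CPM. Des did not overlap, at 6.95, 5.12 and 5.99 CPM against 4.63, 3.95 and 4.97 CPM (log2 fold change 0.41, edgeR adjusted p = 0.887).

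Interferon response genes had a median near 0 between these genotypes. Of 38 tested, none was called by edgeR and 1 was by DESeq2, which called 474 of the 15070 genes. An unadjusted p under 0.05 was reached by 1, against 11.3% of all genes, and the median log2 fold change was 0.021. Ifit1 was at 10.3, 14.2 and 9.22 CPM in DKO livers and at 12.95, 17.99 and 14.96 CPM in Sting1 KO livers (log2 fold change -0.44, SE 0.40). Isg15, a ubiquitin-like modifier, was at 8.15, 7.77 and 5.06 CPM against 7.36, 6.71 and 7.91 CPM (log2 fold change -0.07, SE 0.48). Cxcl10, an interferon-induced chemokine, was at 5.04, 7.48 and 6.08 CPM against 2.79, 2.60 and 5.26 CPM (log2 fold change 0.79, SE 0.47, edgeR adjusted p = 0.598). The 3 genes overlapped between the genotypes. Of 16 genes of cytosolic DNA sensing, none was called, and Cgas had 0.401, 0.731 and 0.848 CPM against 0.320, 0.610 and 0.483 CPM.

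Chemokine ligands had no called member among 21 by edgeR and 3 by DESeq2, which called 474 of the 15070 genes. Their median log2 fold change was 0.77. Ccl2, which recruits monocytes, was at 2.005, 1.998 and 1.42 CPM in DKO livers and at 0.378, 0.451 and 0.579 CPM in Sting1 KO livers, without overlap (log2 fold change 1.82, SE 0.48, edgeR adjusted p = 0.117). Ccl5 was at 1.14, 0.682 and 1.34 CPM against 0.786, 0.796 and 0.603 CPM and overlapped (log2 fold change 0.50, edgeR adjusted p = 0.649). In the NF-kB and TNF response list, 1 of 15 rose, against 0.677% of all genes called higher. That gene was Vcam1, an adhesion molecule for leukocytes, at 58.0, 56.0 and 54.3 CPM against 23.98, 17.3 and 21.6 CPM (log2 fold change 1.42, SE 0.26, edgeR adjusted p = 0.0353). Its 3 DKO livers were close together. With Y-linked expression as a covariate it missed the threshold at a log2 fold change of 1.48 (edgeR adjusted p = 0.0551), and without DKO 1 at 1.39 (edgeR adjusted p = 0.117).

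Genes of differentiated hepatocytes showed almost no calls by edgeR, by which only 0.126% of all genes were called lower. None of the 21 hepatocyte identity genes, 30 cytochrome P450 genes, 24 genes of bile acid synthesis and transport, 20 periportal and urea cycle genes, 24 genes of sterol synthesis and lipogenesis, or 27 coagulation and complement genes was called, and the medians of these lists lay between -0.33 and -0.10. All 3 DKO livers were below all 3 Sting1 KO livers for 5 identity, 9 cytochrome P450, 6 bile acid and 8 coagulation and complement genes. The same held for 2 periportal and 3 sterol genes, and for 10.8% of all genes. All 3 DKO livers were above for 1 cytochrome P450, 1 bile acid and 3 coagulation and complement genes, against 11.5% of all genes. Alb had 92420, 100700 and 91900 CPM in DKO livers and 120400, 112800 and 90010 CPM in Sting1 KO livers. Hnf4a, which sets hepatocyte identity, had 635, 521 and 822 CPM against 669, 592 and 736 CPM (log2 fold change -0.01, SE 0.18). Slc10a1, the transporter that takes up bile acids from blood, had 287, 433 and 440 CPM against 745, 762 and 608 CPM, without overlap, and missed the threshold (log2 fold change -0.87, SE 0.26, edgeR adjusted p = 0.181). Cyp7a1, the rate-limiting enzyme of bile acid synthesis, had 78.0, 325 and 194 CPM against 628, 448 and 233 CPM, which overlapped.

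Single genes of hepatocyte metabolism rose in lists that otherwise had no call. Gsta1, a glutathione transferase, was at 14.6, 7.14 and 1.53 CPM in DKO livers and at 0.0291, 0.186 and 0.265 CPM in Sting1 KO livers (log2 fold change 5.14, SE 0.95, edgeR adjusted p = 0.0365). Its close paralogs may share reads with it. Of the 17 NRF2 and glutathione genes, Gsta1 was the only call, against 0.677% of all genes called higher, and the median was 0.71. An unadjusted p under 0.05 was reached by 10, against 11.3% of all genes. In 8, all DKO livers were above all Sting1 KO livers, against 11.5% of all genes. Nqo1 and Gclc, other targets of NRF2, had log2 fold changes of 0.45 and 0.72 (edgeR adjusted p = 0.683 and 0.391). Slc1a4, a neutral amino acid transporter listed here with pericentral genes, was at 26.1, 21.3 and 25.0 CPM against 6.72, 7.51 and 4.37 CPM (log2 fold change 1.95, SE 0.33, edgeR adjusted p = 0.0293). Pdk4, a kinase that holds back pyruvate dehydrogenase and a target of PPAR-alpha, was at 10.1, 12.2 and 19.2 CPM against 2.47, 4.38 and 3.55 CPM (log2 fold change 1.98, SE 0.34, edgeR adjusted p = 0.0305). Here DKO 3 was the highest of the DKO livers. Igf2bp3, an oncofetal RNA-binding protein, was at 6.05, 1.90 and 2.60 CPM against 0.204, 0.239 and 0.748 CPM (log2 fold change 2.95, edgeR adjusted p = 0.038). Afp and H19, also of the oncofetal list, were not called, at log2 fold changes of 1.32 (edgeR adjusted p = 0.126) and 1.78 (edgeR adjusted p = 0.482). With Y-linked expression as a covariate, Gsta1 and Pdk4 passed, Slc1a4 (edgeR adjusted p = 0.0504) and Igf2bp3 (edgeR adjusted p = 0.0599) did not, and without DKO 1 none of the 4 passed.

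Gldn (ENSMUSG00000046167, chromosome 9, 54193617 to 54249070), which encodes gliomedin, an adhesion protein known from the nodes of Ranvier, had the lowest p of the genes that rose. It was at 11.9, 9.28 and 4.68 CPM in DKO livers and at 0.728, 0.292 and 0.265 CPM in Sting1 KO livers (log2 fold change 4.18, SE 0.46, edgeR adjusted p = 0.00725). Gldn was past the threshold in 18 of the 20 alternatives and missed it without Sting1 KO 2 (adjusted p = 0.116) and without Sting1 KO 3 (adjusted p = 0.0655). Cib3, a calcium- and integrin-binding protein, was at 17.7, 15.6 and 4.84 CPM against 1.37, 0.982 and 1.47 CPM (log2 fold change 3.26, SE 0.47, edgeR adjusted p = 0.0206). WT livers had 17.4, 8.48 and 7.40 CPM of Cib3, so that DKO livers were within or near the WT range and Sting1 KO livers below it.

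**Figure D3:**
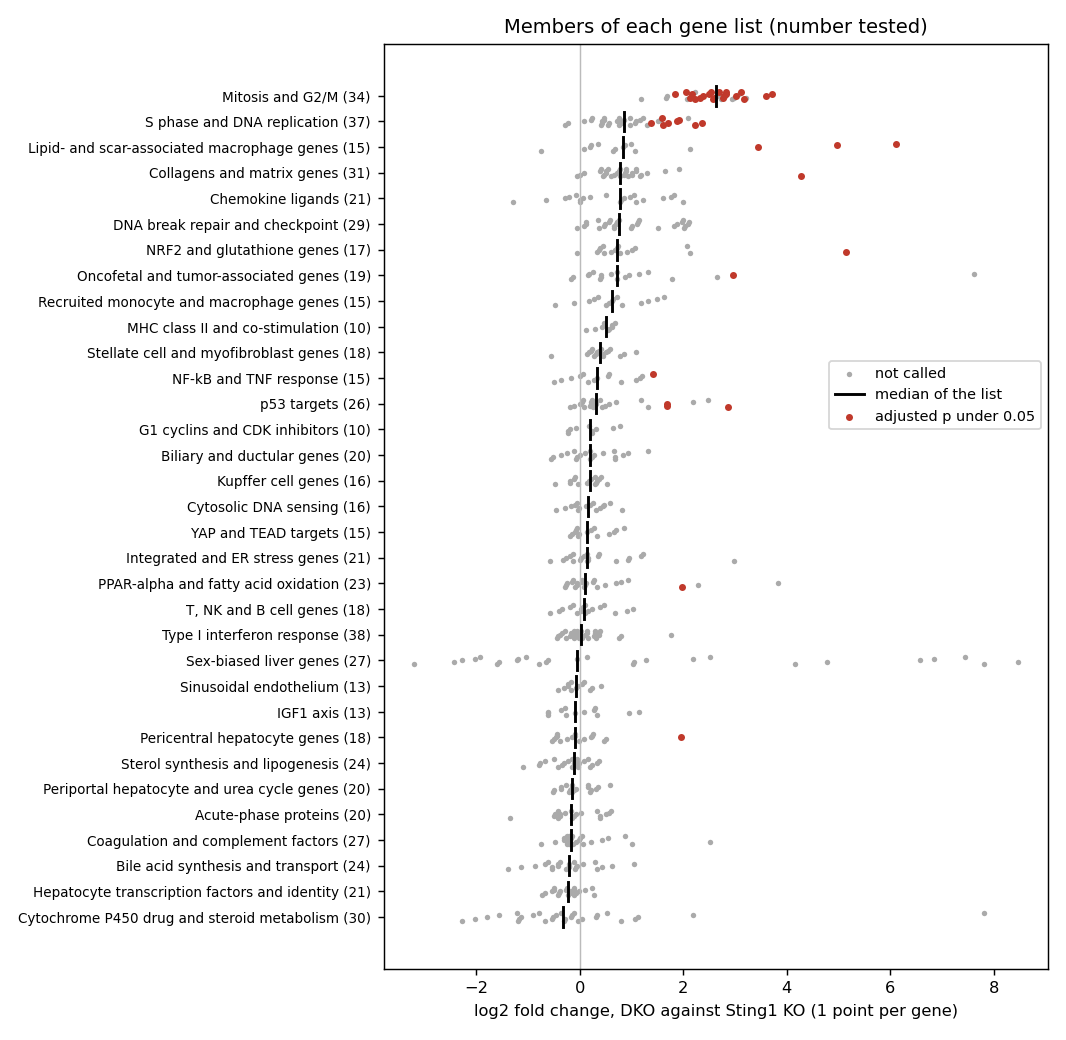
Each row is a gene list with at least 10 tested members, each point is the log2 fold change of 1 member between DKO and Sting1 KO livers, red points passed an adjusted p of 0.05 and the black bar is the median of the list. The mitosis list lay apart with a median of 2.63, and the medians of hepatocyte lists lay just below 0.

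Of the 19 genes that fell, only Mcl1 belonged to a gene list. Mme (ENSMUSG00000027820, chromosome 3, 63148889 to 63293451), the membrane peptidase neprilysin, had the largest fall of all genes tested. It was at 2.84, 3.41 and 2.55 CPM in DKO livers and at 46.9, 80.2 and 64.0 CPM in Sting1 KO livers (log2 fold change -4.41, SE 0.76, edgeR adjusted p = 0.0305). WT livers had 6.07, 1.36 and 13.4 CPM and Mcl1 KO livers 23.6, 3.89 and 17.4 CPM of Mme. The Sting1 KO livers were thus above the other 9 livers, and the DKO livers lay within the WT range. Rps3a1, a ribosomal protein gene with many processed copies in the genome that can share its reads, had 43.5, 37.3 and 47.3 CPM in DKO livers and 191, 165 and 126 CPM in Sting1 KO livers (log2 fold change -1.92, SE 0.32, edgeR adjusted p = 0.0293). Its WT livers had 44.9, 49.0 and 109 CPM, so here too the Sting1 KO livers were the high ones. Rps3a1 passed with Y-linked expression as a covariate (edgeR adjusted p = 0.0466), and Mme did not (edgeR adjusted p = 0.0505). Neither Mme nor Rps3a1 passed without DKO 1 (edgeR adjusted p = 0.124 and 0.114). Both genes lie on chromosome 3, as does Mcl1. That chromosome held 4 of the lower and 5 of the higher calls, and a part of position was not tested.

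For Cnmd, Dct and Hnf4aos, WT livers lay nearer to the Sting1 KO than to the DKO livers. Cnmd, which encodes chondromodulin, an inhibitor of angiogenesis, was at 0.234, 0.244 and 0.383 CPM in DKO livers and at 1.92, 2.79 and 2.73 CPM in Sting1 KO livers (log2 fold change -2.89, SE 0.38, edgeR adjusted p = 0.0206). WT livers had 6.89, 3.06 and 4.62 CPM of it. Dct, dopachrome tautomerase of melanin synthesis, was at 1.002, 1.49 and 2.46 CPM against 9.49, 14.5 and 9.34 CPM (log2 fold change -2.71, SE 0.45, edgeR adjusted p = 0.0274), with 9.95, 6.88 and 13.1 CPM in WT livers. Hnf4aos, an RNA transcribed from the opposite strand of the Hnf4a locus, was at 1.30, 0.975 and 0.657 CPM against 3.52, 3.71 and 5.12 CPM (log2 fold change -2.02, edgeR adjusted p = 0.0353). Use of strand in the counting was not stated, so reads of Hnf4a and Hnf4aos could not be separated with certainty. Eef2k, the kinase that inhibits translation elongation, fell by 1.16 (edgeR adjusted p = 0.0448), Syde2 by 1.24 (edgeR adjusted p = 0.0437), and BC024139 by 1.14 (edgeR adjusted p = 0.0206). Azin2, Ranbp3l and Syt3 fell by 1.61, 2.36 and 1.54 from Sting1 KO levels of 1.34 to 4.09 CPM (edgeR adjusted p = 0.045, 0.0459 and 0.0494). Cnmd, Dct, Hnf4aos, Syde2 and BC024139 passed with Y-linked expression as a covariate, and Eef2k, Azin2, Ranbp3l and Syt3 did not. None of these genes passed without DKO 1.

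**Figure D4:**
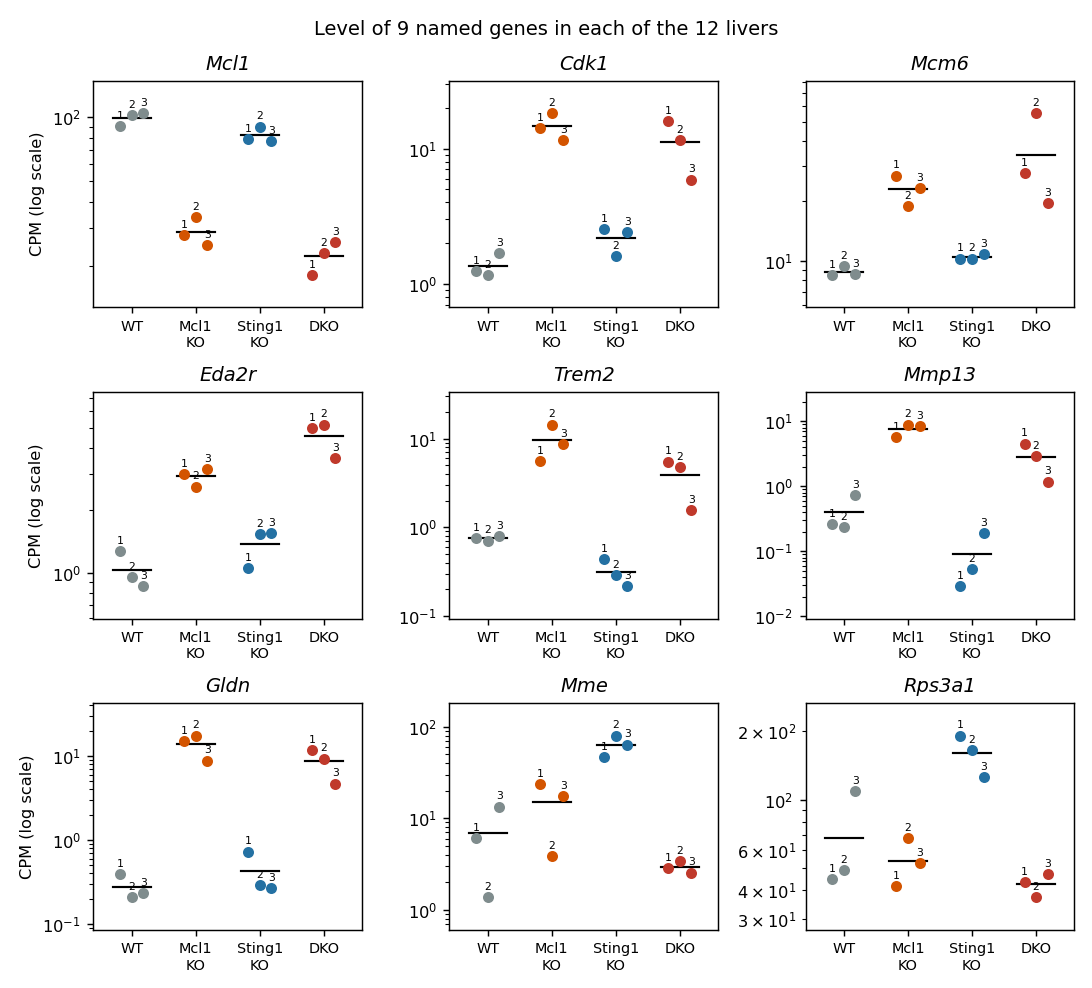
Each panel gives the CPM of 1 gene on a log axis in the 12 livers, with points numbered by replicate and a bar at the arithmetic mean of each genotype. Mcl1 was lower and Cdk1, Mcm6, Eda2r, Trem2, Mmp13 and Gldn were higher in every DKO liver than in every Sting1 KO liver, and for Mme and Rps3a1 the Sting1 KO livers stood above all others.

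The same deletion on the intact Sting1 background, Mcl1 KO against WT, gave 3050 genes at an adjusted p under 0.05 (20.2%). It shared no library with the comparison of DKO and Sting1 KO livers, though both took their spread from 1 fit. Its libraries were mixed in other respects: WT 2 and WT 3 had 147 and 142 CPM on the Y-linked genes, while WT 1 and the 3 Mcl1 KO livers had 0.201 CPM or less, and Mcl1 KO 3 held 10330 CPM of exocrine pancreas and 1962 CPM of skeletal muscle genes. The part of these in the values on the intact background was not tested. Of the 121 genes called on the Sting1-null background, 115 (95%) were also called on the intact one, all in the same direction. These 115 were 3.77% of the genes called on the intact background. All 102 genes that rose were among the 115, and their median log2 fold change was 2.37 on the Sting1-null and 2.77 on the intact background. The 6 genes not called on the intact background were all lower in DKO livers. They were Mme, with a log2 fold change of 1.11 between Mcl1 KO and WT livers, Rps3a1 with -0.33, Azin2 with -0.06, Ranbp3l with -0.88, Eef2k with -0.69, and 4833417C18Rik.

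**Figure D5:**
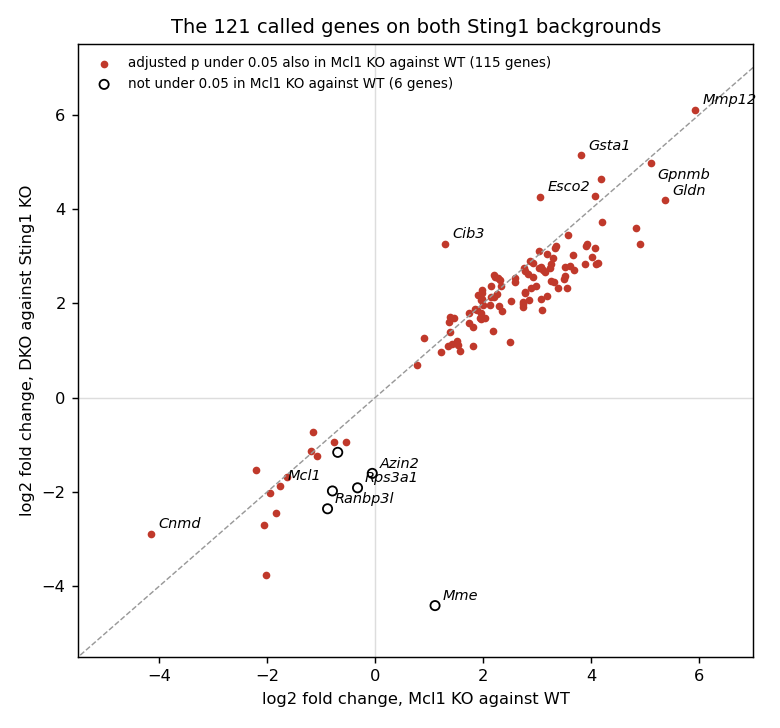
Each point is 1 of the 121 genes called between DKO and Sting1 KO livers, with the log2 fold change of Mcl1 KO against WT livers on the horizontal and that of DKO against Sting1 KO livers on the vertical axis, and the dashed line marks equality. The 102 rising genes lie in the upper right, 76 of them below the line, and Mme is apart at 1.11 and -4.41.

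The difference between the Mcl1 effects on both backgrounds was tested directly, as an interaction. By edgeR, 0 genes passed an adjusted p of 0.05 (the smallest was 0.216), 2165 had an unadjusted p under 0.05 (14.4%), and DESeq2 called 172. None of the genes above was therefore shown by edgeR to respond to Mcl1 deletion in a Sting1-dependent way. For Mme the difference of the effects was -5.52 (SE 0.996), for Cib3 1.97 (SE 0.61), for Rps3a1 -1.59 (SE 0.44) and for Cdk1 -1.06 (SE 0.46), with edgeR adjusted p = 0.216, 0.277, 0.255 and 0.34. Without Mcl1 KO 1, 1574 genes passed this test, and without WT 1, 88 did. With Y-linked expression as a covariate, and without Mcl1 KO 3, 0 genes passed it. For the mitosis list, the median effect was 2.63 on the Sting1-null and 3.12 on the intact background, and 29 of its 34 members had the smaller effect without Sting1. The recruited monocyte and macrophage list had medians of 0.63 and 1.56, the lipid- and scar-associated macrophage list 0.83 and 1.70, the chemokine list 0.77 and 1.16, and the interferon list 0.021 and 0.012. The p53 targets had 0.31 and 0.37. No member of these lists passed the test of the difference by edgeR.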

How the data were processed

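Whole-liver RNA of 12 samples was sequenced. Per the labels, the authors aligned reads with STAR to GRCm39 and counted them per gene with featureCounts, and the deposited values were raw counts. Versions, annotation release and use of strand are not given in the sources used here. Of 40551 identifiers, 39533 matched GENCODE vM39, which gave symbols and coordinates. Counts of all 12 libraries were fitted with edgeR 4.0.16 in R 4.3.3 (TMM factors, filterByExpr by genotype, glmQLFit and glmQLFTest, prior count 2, 8 residual degrees of freedom), and p-values were adjusted by Benjamini-Hochberg over the 15070 genes tested, with a threshold of 0.05. Two-sided contrasts compared DKO with Sting1 KO, Mcl1 KO with WT, and the difference of both. Differences on the log2 scale understate changes of genes with few reads, and 7 of the higher genes had under 10 reads in every Sting1 KO library.

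The genes named were Mcl1 and Sting1, the 12 largest rises and 12 largest falls among called genes with a mean of at least 1 CPM over the 6 libraries and no overlap (predicted genes and pseudogenes passed over), and for each of 40 gene lists its fixed anchor genes and up to 4 called members with the lowest p. The comparison, lists and tests were chosen with earlier results of these data known. Alternatives were DESeq2 1.42.0, RLE scaling, no filter and a stricter one (1 CPM in 3 libraries), a replicate block, 2 covariates (Y-linked expression, small structured RNA), the 6 libraries alone, and leaving out each library. Counts were also simulated with 200 of 15151 genes changed by a log2 fold change of 2. The simulation gave all genes and livers the same dispersion and left the genes of lowest expression unchanged, so it was simpler than the real libraries. From these, edgeR recovered 198 with 6 false calls and DESeq2 198 with 26. Recovery in the real libraries was not tested. In the livers, Mki67 and Cdkn1a missed the edgeR threshold at log2 fold changes of 2.67 and 2.48. Some items are not reported here.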

Additional observations from a re-analysis of the deposited data

How the results depend on the processing

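The number of genes past the threshold did not hold. The 121 genes kept their direction in every alternative in which they were tested. Their lack of overlap between the genotypes made this nearly certain whenever a library was left out. DESeq2 called 474 genes between DKO and Sting1 KO livers and 172 for the difference of the Mcl1 effects, where edgeR called 0 and 2165 had an unadjusted p under 0.05. Y-linked expression as a covariate left 45 genes, 41 of them among the 121, and the 6 libraries alone gave 17, 12 of them among the 121. Leaving out 1 library at a time gave 1 to 249 genes for DKO against Sting1 KO and 0 to 1574 for the difference. Beyond the livers of the comparison itself, the count was 65 without Mcl1 KO 2, 52 without WT 2 and 59 without WT 3. These livers took part only through the gene filter, the scaling factors and the estimate of the spread. The cause of these shifts was not tested. RLE scaling, both filters and the small structured RNA covariate gave 106 to 162 genes. Of 800 values of the 40 called named genes under the alternatives, 322 missed the threshold. All 800 kept their direction, with the same limit. The interferon list median ranged from -0.0952 without DKO 2 to 0.098 without DKO 3.

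With the replicate number as a block, 129 genes were called, 92 of them among the 121, and 0 for the difference. Deviations of same-numbered DKO and Sting1 KO libraries correlated at 0.0675, 0.251 and 0.18, and those of differently numbered ones at -0.174 to -0.00607. Each DKO library thus correlated best with its own number. The main fit took the livers as unpaired, and whether the numbers mark a pairing or a batch was not tested.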

Other observations

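Of the 121 genes, 79 were in none of the gene lists, 61 higher and 18 lower, and those named here were chosen after their values were seen. Several of them act in cell division. Ncapg, a condensin subunit, was at 7.55, 4.07 and 2.05 CPM in DKO 1, 2 and 3 and at 0.669, 0.478 and 0.241 CPM in Sting1 KO 1, 2 and 3 (log2 fold change 3.16, edgeR adjusted p = 0.0305). Knl1, a kinetochore scaffold, rose by 2.62 (edgeR adjusted p = 0.0494), and Plk4, the kinase of centriole duplication, by 1.80 (edgeR adjusted p = 0.0268). In all 3 genes DKO 1 was highest and DKO 3 lowest of the DKO livers.

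Further genes outside the lists are given by their values. Akr1b1, an aldose reductase, was at 15.9, 17.1 and 18.6 CPM in DKO livers and at 8.58, 7.48 and 7.53 CPM in Sting1 KO livers (log2 fold change 1.12, edgeR adjusted p = 0.0305). Nlrc4, an inflammasome protein, was at 1.37, 1.36 and 1.29 CPM against 0.495, 0.478 and 0.603 CPM (log2 fold change 1.26, edgeR adjusted p = 0.0448). Grhl1, an epithelial transcription factor, was highest in DKO 3, at 6.92, 3.65 and 8.98 CPM against 1.46, 1.09 and 1.13 CPM (log2 fold change 2.36, edgeR adjusted p = 0.0358). Prkcz, an atypical protein kinase C, was lower, at a mean of 12.8 ± 0.889 (SD, n = 3) CPM in DKO and 21.1 ± 1.89 (SD, n = 3) CPM in Sting1 KO livers, without overlap (log2 fold change -0.72, edgeR adjusted p = 0.0433).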
